A study of Mus musculus with 5 samples.

Results

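The genes described here encode the matrix metalloproteinases (MMPs), the ADAMTS proteases, the ADAMTS-like proteins and the tissue inhibitors of metalloproteinases (TIMPs), compared between eye tumors and wild-type uvea of the mouse. They were taken by name from the loci of the deposited table, as every locus with a gene name that begins with Mmp and a digit or with Adamts, or that is Timp and 1 digit. This gave 51 of 24768 loci, and none of them carried the name of a second gene. There were 23 MMP genes and 19 ADAMTS genes, together 42 protease genes, with 5 ADAMTS-like genes and 4 TIMP genes.

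RNA was sequenced from 5 libraries, 2 of uveal tissue from adult wild-type mice and 3 of eye tumors from adult mice of the genotype AAV5-Cre;Lats1/2 fl/fl. In the tumor mice an adeno-associated virus carried Cre recombinase into eyes with floxed alleles of the Hippo kinase genes Lats1 and Lats2. The labels do not give the promoter that drove Cre, do not say whether wild-type eyes received a virus, and do not tie any library to an animal of its own. The p-values therefore measure only the spread between these libraries, which may be technical. Libraries are numbered in the order of the deposited table, and the numbers only name them.

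MMPs are zinc-dependent proteases that are made as inactive precursors and cut collagens, laminins, proteoglycans and many secreted or surface proteins. ADAMTS proteases share the type of catalytic center and add thrombospondin repeats, by which they bind matrix. They trim procollagens and cleave the large proteoglycans. TIMPs bind the catalytic center and block it. In the eye, TIMP3 is a component of Bruch's membrane under the retinal pigment epithelium, and MMPs take part in the outflow of aqueous humor and in corneal repair.

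Each library held 12687703 to 14368272 estimated fragments. Levels are in FPKM (fragments scaled for transcript length and library depth), with values given for wild-type libraries 1 and 2 and then for tumor libraries 1, 2 and 3. Lats1 read 7.55 and 8.86 FPKM in wild type, against 3.43, 3.90 and 2.94 FPKM in tumors, and it fell (edgeR adjusted p = 0.012). Lats2 was at 20.0 and 20.2 against 12.6, 17.0 and 14.3 FPKM and did not pass (edgeR adjusted p = 0.058). Over whole genes these levels can include exons outside the deleted part. The series title calls the tumors uveal melanoma. All 6 genes of the melanocyte marker list fell: their summed level was 6648 and 6425 FPKM in wild type and 4.36 to 26.9 FPKM in tumors. How much of that wild-type level came from melanocytes, and how much from retinal pigment epithelium, was not tested. The 6 markers of the retinal pigment epithelium summed to 10618 and 10473 FPKM in wild type and to 7.53 to 62.2 FPKM in tumors. Of these 5 fell, and Ttr alone was at 7586 and 7255 FPKM in wild type. Best1 overlapped between the groups, at 0.436 and 0.898 FPKM in wild type and 0.599 to 0.949 FPKM in tumors. The wild-type tissue also held photoreceptor markers, with sums of 982 and 1068 FPKM for 6 genes, against 1.31 to 4.79 FPKM in tumors. The tumor libraries differed among themselves. Tumor library 1 had a summed level of 6456 FPKM for 6 skeletal muscle markers, against 350 to 463 FPKM in the other 4 libraries. Tumor library 2 had a sum of 1270 FPKM for 6 markers of squamous epithelium and cornea, where tumor libraries 1 and 3 had 23.9 and 177 FPKM and wild type 1176 and 1223 FPKM. Its sum came mostly from Krt15, Krt5 and Krt14, at 598, 399.9 and 247 FPKM. The locus read for Krt14 also carries the name Krt16, so its level cannot be given to Krt14 alone. The corneal keratin gene Krt12 was at 18.3 FPKM in tumor library 2 and at 258 and 248 FPKM in wild type. In bulk tissue, fewer cells of a type and less RNA per cell cannot be told apart.

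The MMP genes include a cluster of 10 on chromosome 9, from 7272514 to 7699585 (GRCm38, the genome of build mm10), in the order Mmp13, Mmp12, Mmp1b, Mmp3, Mmp1a, Mmp10, Mmp8, Mmp27, Mmp20 and Mmp7. Promoters of MMP genes are a textbook target of the transcription factor AP-1, whose site was taken here as TGANTCA, where N is any base. These letters are their own reverse complement apart from the middle base, so a match on either strand is the same match. They were searched in RefSeq promoter windows of GRCm38.p6, which run from 250 bases before to 50 bases after a gene's start. A window was at hand for 36 of the 51 genes, with 39 windows in all. The sequence was found at 8 of the 10 genes of the cluster, all but Mmp8 and Mmp27, and in 0 of the 27 windows of genes outside the cluster. The cluster is counted here by gene: Mmp12 and Mmp7 each had 2 windows, of which 1 held the sequence. Over all 32851 windows, 2565 (7.81%) held it. The 8 matches are shown with 25 bases on each side, 5′ to 3′ on the gene's own strand with the match in capitals, because the same letters stand before genes whose levels in these libraries differ widely.

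Mmp13 (chr9:7272454-7272510, plus strand): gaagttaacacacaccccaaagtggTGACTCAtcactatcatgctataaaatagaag
Mmp12 (chr9:7347305-7347361, plus strand): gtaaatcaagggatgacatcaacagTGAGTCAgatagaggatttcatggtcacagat
Mmp1b (chr9:7388088-7388144, minus strand): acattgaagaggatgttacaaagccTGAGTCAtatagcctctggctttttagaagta
Mmp3 (chr9:7445751-7445807, plus strand): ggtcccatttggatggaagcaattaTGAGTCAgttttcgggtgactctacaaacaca
Mmp1a (chr9:7464043-7464099, plus strand): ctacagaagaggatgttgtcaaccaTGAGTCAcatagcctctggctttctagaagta
Mmp10 (chr9:7502254-7502310, plus strand): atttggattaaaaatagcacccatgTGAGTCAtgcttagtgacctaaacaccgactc
Mmp20 (chr9:7628111-7628167, plus strand): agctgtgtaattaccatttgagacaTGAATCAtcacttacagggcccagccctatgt
Mmp7 (chr9:7692002-7692058, plus strand): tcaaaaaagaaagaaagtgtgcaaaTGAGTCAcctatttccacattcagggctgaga

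The matches begin at −95 to −35 relative to the start, all before it. Their middle base is A at Mmp20 and G or C at the other genes, and the count over all windows took any middle base. Of these 8 genes Mmp13 rose in the tumors, Mmp12 and Mmp3 did not pass the test, and Mmp1b, Mmp1a, Mmp10, Mmp20 and Mmp7 had too few fragments to be tested. A match describes letters in the window and is no evidence of binding. The letters GGAATG, the core read by the TEAD partners of YAP and TAZ, were searched on both strands. They stood in 2 of the 39 windows (5.13%), those of Timp1 and Adamts13, against 4817 of all 32851 (14.7%). No match says only that these letters are not in this window.

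Of the 33 protease genes that could be tested, 17 rose in the tumors and 1 fell, and of the 4 inhibitor genes Timp1 alone rose. Whether proteases and inhibitors differ in this was not tested. Among the 33 protease genes, Mmp13, Mmp25, Adamts20, Adamts14 and Adamts18 had enough fragments for the test only with the tumor libraries. Adamts19 and Adamts3 had enough only with wild type. Such genes could enter the counts and medians given here only with a difference. Of the 51 genes, 42 had enough fragments to be tested, and 21 of these changed at an adjusted p under 0.05 in edgeR's quasi-likelihood test, which was adjusted over all 15241 tested loci. Over all tested loci the share called was 34.1%. Of the 42 genes 20 rose, where 18.7% of all tested loci did, and 1 fell, where 15.4% of all tested loci did. The tumor libraries all lay above both wild-type libraries at 28 of the 42 genes (33.7% of all tested loci) and all below them at 8 (35.9% of all tested loci). The groups overlapped at the other 6. The median log2 fold change of tumor over wild type was 1.53 over the 42 genes and 0.05 over all tested loci. By class, 9 of 15 tested MMP genes rose and 0 fell (1 fell at an unadjusted p under 0.05 in edgeR, and 1 with DESeq2), with a median of 2.00. Of 18 tested ADAMTS genes 8 rose and 1 fell, with a median of 2.02. Of 5 ADAMTS-like genes 2 rose and 0 fell in edgeR (1 fell at an unadjusted p under 0.05, and 1 with DESeq2), with a median of 0.72. Of the 4 TIMP genes 1 rose and 0 fell in edgeR (0 at an unadjusted p under 0.05, and 0 with DESeq2), with a median of 0.61.

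With DESeq2 over the same libraries 25 of the genes rose and 4 fell. In an unfiltered limma-trend fit of log2(FPKM + 1), 15 rose and 4 fell, and the share of calls that were higher in tumors went from 54.8% to 44.2% over all loci. With either wild-type library left out, 0 loci of any kind were called in edgeR (unadjusted p under 0.05 at 4085 and 3996 loci), with 15 or 16 of these genes higher and 1 lower at that level. DESeq2 in those sets called 17 rises and 1 fall among these genes each time.

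**Figure D1:**
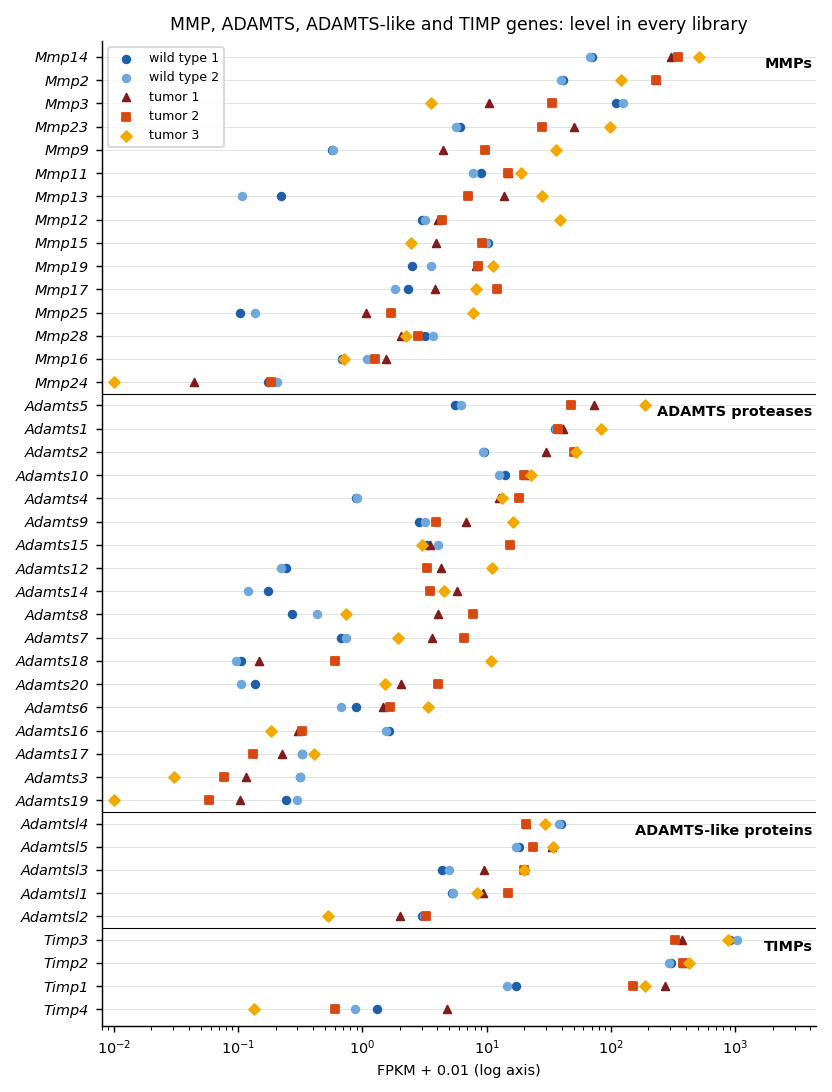
Level of each tested gene in every library, as FPKM + 0.01 on a log axis, with circles for the 2 wild-type libraries and triangles, squares and diamonds for tumor libraries 1, 2 and 3, grouped by class and ordered by mean level. The wild-type circles nearly coincide for most genes, the tumor marks lie to their right for 28 genes, and Timp3, Timp2 and Mmp14 have the highest levels.

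The MMPs with the highest levels in tumors act at the cell surface and on denatured collagen. Mmp14 (chr14:54431612-54445364, plus strand) encodes MT1-MMP, a membrane-anchored collagenase that activates the precursor of MMP2. It read 70.3 and 67.4 FPKM in wild type, against 305, 348 and 510 FPKM in tumor libraries 1, 2 and 3, or 68.9 ± 2.08 (SD, n = 2) against 388 ± 108 FPKM (SD, n = 3). All 3 tumor libraries were above both wild-type libraries, and Mmp14 rose with a log2 fold change of 2.70 (SE 0.28, edgeR adjusted p = 0.0068). Mmp2 (chr8:92827291-92853420, plus strand) encodes gelatinase A. It had levels of 40.7 and 39.8 FPKM in wild type and of 229, 232 and 120 FPKM in tumors, so that tumor library 3, the highest for Mmp14, was the lowest of the tumors for Mmp2. It rose by 2.32 on the log2 scale (SE 0.38, edgeR adjusted p = 0.015).

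Mmp9 and Mmp13 were both below 1 FPKM in wild type and rose in the tumors, to levels that varied between tumor libraries. Mmp9 (chr2:164940780-164955850, plus strand), which encodes gelatinase B, an enzyme made in quantity by neutrophils, macrophages and osteoclasts, was found at 0.558 and 0.574 FPKM in the wild-type libraries, compared with 4.48, 9.66 and 35.9 FPKM in the tumor libraries. It rose by 4.92 (SE 1.15, edgeR adjusted p = 0.032). Without tumor library 3 the log2 fold change of Mmp9 was 3.68 (edgeR adjusted p = 0.013), and the call ended in the unfiltered limma-trend fit (adjusted p = 0.054). Mmp13, the main interstitial collagenase of rodents, read 0.211 and 0.0974 FPKM in wild type, from 7 and 3 fragments, against 13.8, 7.06 and 27.8 FPKM in tumors, from 487, 245 and 916 fragments. Its log2 fold change of 6.72 was the largest of the 42 tested genes (SE 0.91, edgeR adjusted p = 0.00999). Mmp13 had enough fragments for the test only with the tumor libraries, so it could enter that ranking only with a difference. The log2 fold change of Mmp13 was 6.08 without tumor library 3 and 7.31 without wild-type library 1. None of the other genes of soluble collagenases could be tested: Mmp8, the neutrophil collagenase, had 0 and 1 fragments in wild type and 6, 2 and 11 in tumors, Mmp1b had 1 fragment in tumor library 2 alone, and Mmp1a, which the annotation lists as a polymorphic pseudogene, had none.

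Of the stromelysins, which cut proteoglycans, laminin and fibronectin, Mmp11 rose and Mmp3 did not pass, with a lower level in every tumor library. Mmp3 encodes stromelysin 1 and held the highest level of any protease gene in wild type, at 110 and 125 FPKM. In the tumors it read 10.4, 33.8 and 3.57 FPKM, and every tumor library lay below both wild-type libraries. Its log2 fold change was −2.84 (SE 0.91) and did not pass in edgeR (adjusted p = 0.068). It passed with DESeq2 (adjusted p = 0.0049), with limma-trend on log2(FPKM + 1) (adjusted p = 0.037) and in edgeR without tumor library 2 (adjusted p = 0.015). Mmp11, or stromelysin 3, is known from the stroma around carcinomas. It had levels of 8.92 and 7.69 FPKM in wild type and of 14.9, 15.0 and 18.95 FPKM in tumors, and rose by 1.07 (SE 0.20, edgeR adjusted p = 0.019). Mmp10, or stromelysin 2, had 8 fragments in tumor library 2 and none elsewhere.

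Among the other membrane-type MMPs, Mmp25 and Mmp17 rose, both of them anchored by glycosylphosphatidylinositol. Mmp25, or leukolysin, is made by leukocytes. It went from 0.0939 and 0.127 FPKM (4 and 5 fragments) to 1.06, 1.69 and 7.75 FPKM, a log2 fold change of 5.0 (SE 1.22, edgeR adjusted p = 0.035) that was 3.65 without tumor library 3. Mmp25 did not pass with limma-trend on log2(FPKM + 1) (adjusted p = 0.098). Mmp17 was found at 2.34 and 1.83 FPKM in the wild-type libraries, compared with 3.85, 12.1 and 8.27 FPKM in the tumor libraries, a log2 fold change of 2.00 (SE 0.54, edgeR adjusted p = 0.045). This call ended in edgeR without tumor library 2 (adjusted p = 0.055) and without tumor library 3 (adjusted p = 0.079). With all libraries Mmp17 did not pass with limma-trend on log2(FPKM + 1) (adjusted p = 0.057), on log2(FPKM + 0.1) (adjusted p = 0.051) or in the unfiltered limma-trend fit (adjusted p = 0.077), nor in edgeR without the low-count filter (adjusted p = 0.0503). Mmp15, the gene of MT2-MMP, read 10.1 and 9.78 FPKM in wild type, against 3.89, 9.20 and 2.46 FPKM in tumors. Its log2 fold change of −0.89 did not pass (SE 0.56, edgeR adjusted p = 0.27). Without tumor library 2, which stood close to wild type, Mmp15 fell by 1.602 on the log2 scale (edgeR adjusted p = 0.025).

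Mmp12, Mmp19 and Mmp23 complete the MMPs with a level of note. Mmp12 encodes macrophage elastase and had levels of 2.99 and 3.20 FPKM in wild type and of 4.07, 4.37 and 38.7 FPKM in tumors. Tumor library 3 stood apart, and the log2 fold change of 2.39 did not pass (SE 1.22, edgeR adjusted p = 0.18). Without tumor library 3 it was 0.49. Mmp19 was found at 2.48 and 3.58 FPKM in the wild-type libraries, compared with 8.16, 8.43 and 11.2 FPKM in the tumor libraries, and rose by 1.67 (SE 0.27, edgeR adjusted p = 0.015). Mmp23, which encodes a membrane-spanning MMP released by cleavage, read 6.12 and 5.68 FPKM in wild type, against 50.5, 27.7 and 98.8 FPKM in tumors. It rose by 3.37 (SE 0.64, edgeR adjusted p = 0.020) and by 2.76 without tumor library 3. Tumor library 3 was thus the highest of all 5 libraries for Mmp14, Mmp9, Mmp13, Mmp11, Mmp25, Mmp12, Mmp19 and Mmp23.

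Markers of cells that carry some of these enzymes also differed between the groups. The marker lists were chosen with earlier results of these data known, so their counts are no independent evidence. Over all tested loci 18.7% rose and 15.4% fell. Of 8 macrophage markers 6 rose, and their summed level was 299 and 286 FPKM in wild type and 1979, 1505 and 3384 FPKM in tumor libraries 1, 2 and 3. Of 7 neutrophil markers with a locus 2 rose and 1 fell, with sums of 19.1 and 17.3 FPKM in wild type and 49.6, 160 and 63.3 FPKM in tumors. In tumor library 2 Ltf and S100a9 gave 97.0 and 40.9 FPKM of that sum. Neither passed in edgeR (adjusted p = 0.090 and 0.15), and Ltf passed with DESeq2 (adjusted p = 0.00052). S100a8 and Csf3r rose. Camp fell, from 6.46 and 4.51 FPKM to 0.718, 0.182 and 0.383 FPKM. Ngp, counted in the 7, had too few fragments to be tested. Of 8 fibroblast markers 4 rose and 0 fell in edgeR (1 fell at an unadjusted p under 0.05, and 1 with DESeq2), with sums of 1756 and 1951 FPKM in wild type and 3566, 2598 and 4395 FPKM in tumors. Dcn, the fibroblast marker with the highest wild-type level, lay below wild type in every tumor library, at 1206 and 1373 against 809, 491 and 448 FPKM (edgeR adjusted p = 0.060, DESeq2 adjusted p = 0.0059). None of the markers in these 3 lists was at 0 in all libraries. The macrophage and fibroblast sums were highest in tumor library 3. Its fibroblast sum was led by Col1a1, Col1a2 and Col3a1 (1419, 1276 and 965 FPKM). These collagen genes, Pdgfra and Pdgfrb had their highest level there, whereas Dcn, Lum and Thy1 had their lowest tumor level there. Lum went from 128 and 144 FPKM in wild type to 211, 131 and 25.5 FPKM in tumors. Thy1 went from 14.4 and 14.7 FPKM to 265, 235 and 95.2 FPKM. Tumor library 2, the tumor nearest to wild type for Mmp3 and Mmp15, was the one with 1270 FPKM of squamous epithelium and cornea markers, of which 1 of 6 fell. The part of these cells in the protease levels was not tested.

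**Figure D2:**
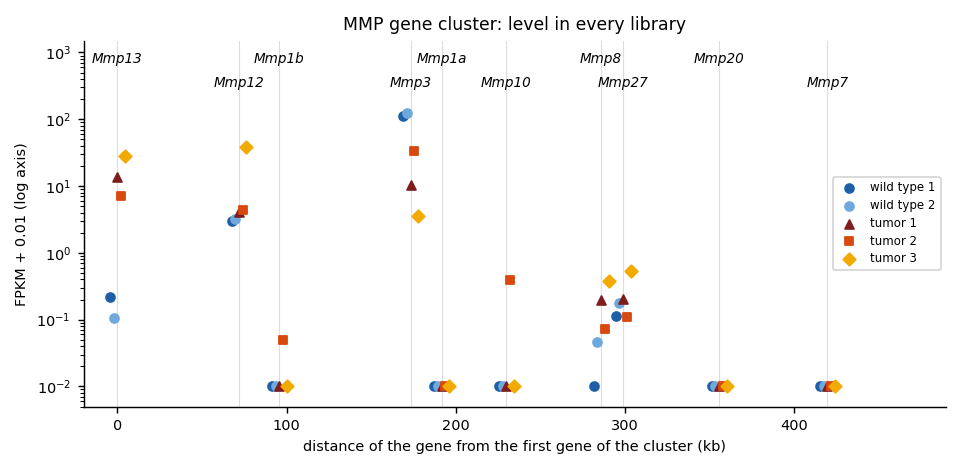
Level of the 10 MMP genes of the chromosome 9 cluster in every library (FPKM + 0.01, log axis), at the distance of each gene's first base from that of Mmp13 in kb, with marks of 1 gene set slightly apart. Mmp13 has its tumor marks above its wild-type marks and Mmp3 has them below, 173 kb away, while Mmp1a, Mmp20 and Mmp7 lie at 0 in all libraries.

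The order of levels within the cluster is shown in the plot of the 10 genes by distance. Neighbors differed: Mmp12 and Mmp1b overlap on opposite strands, with Mmp12 at 2.99 FPKM or more in every library and Mmp1b at 0 in 4 of them. Mmp3 and Mmp1a lie 8.17 kb apart, and Mmp1a had no fragment in any library. The cluster genes are close relatives, and reads that match several of them may have been split between them. In all, 4 genes had no fragment in any library: Mmp1a, Mmp20 (enamelysin, an enzyme of tooth enamel), Mmp7 (matrilysin) and Adamts13 (the protease of von Willebrand factor, made mainly in the liver). A count of 0 allows up to 3 fragments per library, counting error only.

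The ADAMTS genes were led in the tumors, by mean level, by Adamts5 and Adamts1, which encode proteases of aggrecan and versican. They are neighbors on chromosome 16 and read from the same strand, 53.1 kb apart. Adamts5 (chr16:85856173-85901828, minus strand) read 5.59 and 6.17 FPKM in wild type, against 72.8, 47.7 and 189 FPKM in tumor libraries 1, 2 and 3, or 5.88 ± 0.406 (SD, n = 2) against 103 ± 75.4 FPKM (SD, n = 3). It rose by 4.17 (SE 0.75, edgeR adjusted p = 0.018), and by 3.39 without tumor library 3. Adamts1 was higher than Adamts5 in wild type, at 35.1 and 36.3 FPKM, and was at 40.9, 37.2 and 82.8 FPKM in tumors. Tumor libraries 1 and 2 lay just above wild type, and the log2 fold change of 0.63 did not pass (SE 0.41, edgeR adjusted p = 0.27). It was 0.17 without tumor library 3.

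Of this group of 7, the proteoglycan-cleaving ADAMTS, 3 rose in all. Adamts4, or aggrecanase 1, varied least among the tumors, relative to its mean, of the 7. It had levels of 0.870 and 0.889 FPKM in wild type and of 12.6, 18.3 and 13.3 FPKM in tumors, and rose by 3.91 (SE 0.35, edgeR adjusted p = 0.0054). Adamts20, which in mice is needed for the spread of pigment cell precursors in the skin, was found at 0.127 and 0.0946 FPKM in the wild-type libraries (9 and 8 fragments), compared with 2.05, 4.08 and 1.52 FPKM in the tumor libraries. It rose by 4.20 (SE 0.64, edgeR adjusted p = 0.013), and by 3.61 without tumor library 2. Adamts9 read 2.84 and 3.16 FPKM in wild type, against 6.80, 3.93 and 16.3 FPKM in tumors, a log2 fold change of 1.67 that did not pass (SE 0.68, edgeR adjusted p = 0.12). Adamts9 passed with DESeq2 (adjusted p = 0.043) and in edgeR without tumor library 2, at 1.98 (adjusted p = 0.042), and was at 0.85 without tumor library 3. Adamts15 had levels of 3.29 and 4.03 FPKM in wild type and of 3.46, 15.3 and 3.02 FPKM in tumors. Only tumor library 2 stood above wild type, and the log2 fold change of 1.04 (SE 0.82, edgeR adjusted p = 0.36) was −0.16 without it.

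The procollagen N-propeptidases, which remove the amino-terminal propeptide of fibrillar procollagens, rose for 2 of 3 genes. Adamts2 was found at 9.50 and 9.25 FPKM in the wild-type libraries, compared with 30.0, 50.7 and 52.6 FPKM in the tumor libraries, and rose by 2.37 (SE 0.26, edgeR adjusted p = 0.0072). Adamts14 read 0.164 and 0.110 FPKM in wild type (11 and 7 fragments), against 5.77, 3.50 and 4.55 FPKM in tumors. It rose by 4.90 (SE 0.38), with the smallest adjusted p of the 42 genes (edgeR adjusted p = 0.0046). Adamts14 had enough fragments for the test only with the tumor libraries, so it could enter that ranking only with a difference. Adamts3, the other gene, lay below wild type in every tumor library, at low levels of 0.302 and 0.304 FPKM in wild type and 0.105, 0.0675 and 0.0203 FPKM in tumors. Its log2 fold change of −2.16 did not pass in edgeR (SE 0.69, adjusted p = 0.066). It passed with DESeq2 (adjusted p = 0.034) and in edgeR without tumor library 3 (adjusted p = 0.038).

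Adamts12 and Adamts7, which encode related proteases of cartilage oligomeric matrix protein, both rose. Adamts12 had levels of 0.234 and 0.213 FPKM in wild type and of 4.30, 3.31 and 11.1 FPKM in tumors, a log2 fold change of 5.02 (SE 0.74, edgeR adjusted p = 0.012) that was 4.30 without tumor library 3. Adamts7 was found at 0.659 and 0.727 FPKM in the wild-type libraries, compared with 3.61, 6.498 and 1.92 FPKM in the tumor libraries, a log2 fold change of 2.60 (SE 0.59, edgeR adjusted p = 0.030). The Adamts7 call ended in edgeR without tumor library 1 (adjusted p = 0.060) and in the unfiltered limma-trend fit (adjusted p = 0.063). Adamts10, which binds fibrillin microfibrils, rose by a smaller amount: it read 14.1 and 12.6 FPKM in wild type, against 20.2, 19.8 and 22.7 FPKM in tumors (log2 fold change 0.69, SE 0.15, edgeR adjusted p = 0.026). Adamts16 was the 1 gene that fell. It had levels of 1.62 and 1.55 FPKM in wild type and of 0.294, 0.314 and 0.173 FPKM in tumors, a log2 fold change of −2.55 (SE 0.38, edgeR adjusted p = 0.012).

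**Figure D3:**
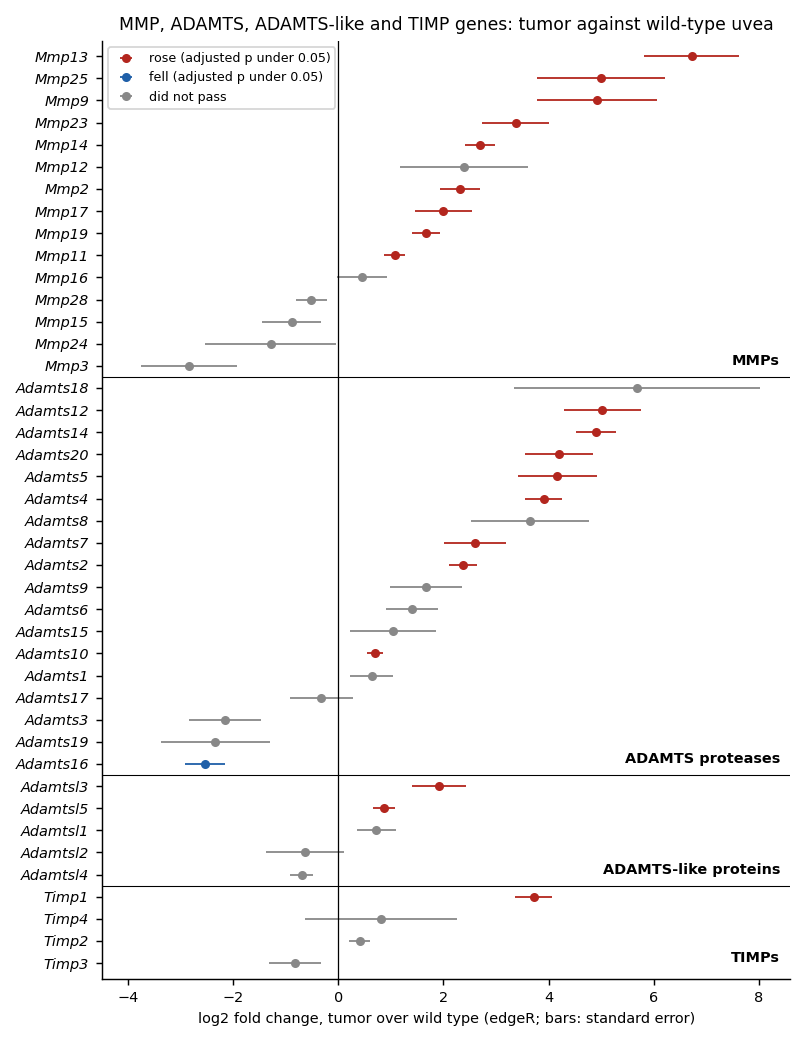
Log2 fold change of tumor over wild type for the 42 tested genes (points) with its standard error (bars), by class, in red for the 20 genes that rose, blue for the 1 that fell and grey for the 21 that did not pass. Most proteases lie right of 0, from Mmp13 at 6.72 down to Adamts10 at 0.69 among those that rose, and of the TIMPs only Timp1 is in red.

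The ADAMTS-like proteins have the ancillary domains of ADAMTS proteases without the catalytic part and bind to microfibrils. Adamtsl3 was found at 4.39 and 4.94 FPKM in the wild-type libraries, compared with 9.59, 19.8 and 19.8 FPKM in the tumor libraries, and rose by 1.91 (SE 0.51, edgeR adjusted p = 0.044). The Adamtsl3 call ended in edgeR without tumor library 2 (adjusted p = 0.071) and without tumor library 3 (adjusted p = 0.069). Adamtsl5 read 18.1 and 17.2 FPKM in wild type, against 33.2, 23.6 and 34.5 FPKM in tumors, and rose by 0.87 (SE 0.21, edgeR adjusted p = 0.034). That call ended in edgeR without tumor library 1 (adjusted p = 0.064) and without tumor library 3 (adjusted p = 0.058), and in the unfiltered limma-trend fit (adjusted p = 0.052). The deposited locus of Adamtsl5 runs from 79697305 to 80369637 on chromosome 10, far beyond the annotated gene at 80339110 to 80348412. The deposited loci of Adamts9, Timp1, Timp3 and Timp4 also run well beyond the annotated genes. Adamtsl4, whose human counterpart is mutated in inherited displacement of the lens, had levels of 39.5 and 38.3 FPKM in wild type and of 20.7, 20.6 and 29.6 FPKM in tumors. Its log2 fold change of −0.70 did not pass (SE 0.22, edgeR adjusted p = 0.066) and passed with DESeq2 (adjusted p = 0.022) and without tumor library 3 (edgeR adjusted p = 0.015). Adamtsl1 was found at 5.28 and 5.37 FPKM in the wild-type libraries, compared with 9.36, 14.7 and 8.32 FPKM in the tumor libraries, and its log2 fold change of 0.72 did not pass (SE 0.37, edgeR adjusted p = 0.19).

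The other 10 tested genes had a higher group mean of 0.179 to 4.14 FPKM, and none of them passed in edgeR (adjusted p = 0.062 to 0.70). DESeq2 called 4 of them, with rises of Adamts18, Adamts6 (adjusted p = 0.040) and Adamts8 (adjusted p = 0.0016) and the fall of Adamts3. In edgeR without tumor library 3, Adamts8 rose by 4.14 (adjusted p = 0.011) and Adamts3 fell by 1.76 on the log2 scale. Adamts18, Adamts6, Adamts8 and Adamts3 were named after their values were seen. Adamts18 read 0.0959 and 0.0862 FPKM in wild type, against 0.138, 0.597 and 10.9 FPKM in tumors, with 813 of its fragments in tumor library 3. Its log2 fold change was 5.68 with all libraries (SE 2.35, edgeR adjusted p = 0.12) and 2.19 without tumor library 3, and it passed with DESeq2 (adjusted p = 0.0019). The filter on low counts let in Mmp13, Mmp25, Adamts20 and Adamts18 through the tumor libraries. Each of them had under 10 fragments in both wild-type libraries. Adamts14, at 11 and 7 fragments in wild type, also needed the tumor libraries to enter. Adamts19 was let in through wild type in the same way, and Adamts3, at 11, 7 and 2 fragments in the tumor libraries, needed wild type. Genes at so low a level in 1 group could enter the test only with a difference.

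Among the inhibitors Timp1 rose, while Timp3 and Timp2, the genes with the highest levels of the family in wild type, did not pass the test. Timp1 (chrX:20870166-20874735, plus strand), the secreted inhibitor that also binds the precursor of MMP9, read 17.3 and 14.6 FPKM in wild type, against 273, 149 and 186 FPKM in tumor libraries 1, 2 and 3, or 15.9 ± 1.87 (SD, n = 2) against 203 ± 63.5 FPKM (SD, n = 3). It rose by 3.72 (SE 0.35, edgeR adjusted p = 0.0057). Timp2, which blocks MMP2 and also serves in its activation by MT1-MMP, had levels of 303 and 291 FPKM in wild type and of 381, 377 and 427 FPKM in tumors. The groups did not overlap, yet the log2 fold change of 0.41 did not pass in edgeR (SE 0.19, adjusted p = 0.16) and passed with DESeq2 (adjusted p = 0.030).

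Timp3 (chr10:86300372-86349506, plus strand), the matrix-bound inhibitor that also blocks ADAMTS4 and ADAMTS5, had the highest level of the 51 genes in both wild-type libraries. It was at 912 and 1027 FPKM there and at 376, 331 and 878 FPKM in tumors, or 970 ± 81.4 (SD, n = 2) against 528 ± 304 FPKM (SD, n = 3). Tumor library 3 was close to wild type, and the log2 fold change of −0.83 did not pass (SE 0.50, edgeR adjusted p = 0.25). Without tumor library 3, Timp3 fell by 1.41 on the log2 scale (edgeR adjusted p = 0.015). Timp4 was found at 1.29 and 0.862 FPKM in the wild-type libraries, compared with 4.77, 0.589 and 0.125 FPKM in the tumor libraries. Its groups overlapped, and its log2 fold change was 0.81 with all libraries (SE 1.44, edgeR adjusted p = 0.69) and −1.52 without tumor library 1. Tumor library 1 was also the library with 6456 FPKM of skeletal muscle markers, none of which passed the test as a group difference in edgeR (0 of 6 at an unadjusted p under 0.05, and 2 rises with DESeq2). The part of muscle in the Timp4 level was not tested.

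Timp1, Timp3 and Timp4 each lie within a synapsin gene on the opposite strand, in the order Syn1, Syn3 and Syn2. Their deposited loci run well beyond the annotated genes. They span 20848543 to 20920918 on chromosome X for Timp1, 86048746 to 86498896 on chromosome 10 for Timp3 and 115134902 to 115282626 on chromosome 6 for Timp4. The strand setting of the authors' counting is not given in the sources used here, so reads of a host gene and of its guest cannot be told apart where they overlap. The host genes were at 0.122 to 1.40 FPKM over all libraries. These levels are far below those of Timp1 and Timp3 and overlap the range of Timp4.

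**Figure D4:**
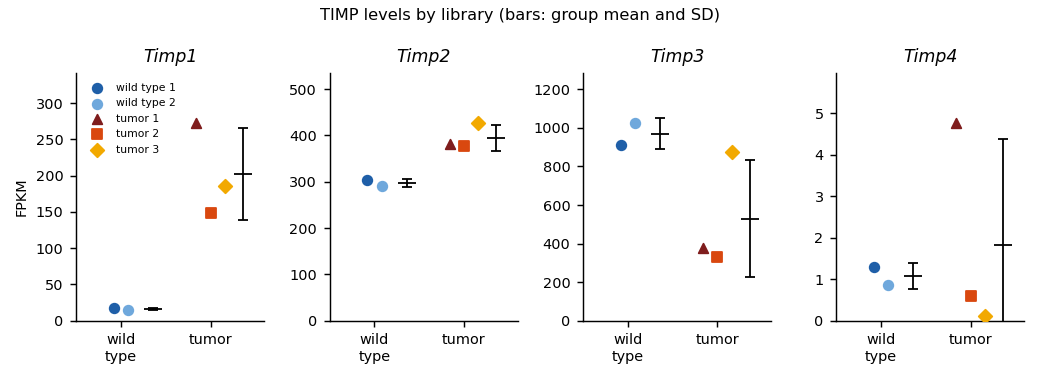
FPKM of the 4 TIMP genes in every library (linear axes from 0, a scale for each gene), with horizontal bars at the group mean and vertical bars for 1 SD (n = 2 wild type, n = 3 tumor), cut at 0 for Timp4. Tumor marks of Timp1 lie at 149 FPKM and above against 17.3 FPKM and below in wild type, while those of Timp3 lie at 331, 376 and 878 FPKM under 912 and 1027 FPKM.

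Proteases were then compared with inhibitors as summed FPKM in each library, which allows genes of different length to be added. The 42 protease genes summed to 336 and 347 FPKM in wild type and to 862, 935 and 1301 FPKM in tumor libraries 1, 2 and 3. The 4 TIMP genes summed to 1234 and 1333 FPKM in wild type and to 1035, 858 and 1492 FPKM in tumors. The protease sums of the groups did not overlap, and the TIMP sums did. The ratio of proteases to TIMPs was 0.272 and 0.261 in wild type and 0.833, 1.09 and 0.872 in tumors. Its mean was 0.266 ± 0.00819 (SD, n = 2) against 0.932 ± 0.139 (SD, n = 3), or 3.50 times higher in tumors, and the groups did not overlap. No p is given for a value summed over genes of the family. MMP genes alone went from 260 and 270 FPKM to 653, 714 and 887 FPKM, and ADAMTS genes alone from 76.2 and 77.2 FPKM to 209, 221 and 414 FPKM. The ADAMTS-like sum was 70.3 and 68.9 FPKM in wild type and 74.9, 81.9 and 92.7 FPKM in tumors.

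Which genes made up these sums differed between the groups. Mmp3 gave 32.9% and 36.1% of the protease sum in wild type and 1.20%, 3.62% and 0.274% in tumors. Mmp14 gave 20.9% and 19.4% in wild type and 35.4%, 37.2% and 39.2% in tumors, the largest share in each tumor library. Adamts5 gave 1.67% and 1.78% in wild type and 8.45%, 5.10% and 14.5% in tumors. Among the inhibitors, Timp3 gave 73.9% and 77.0% of the TIMP sum in wild type and 36.4%, 38.6% and 58.8% in tumors. Timp1 gave 1.40% and 1.10% in wild type and 26.4%, 17.4% and 12.5% in tumors. Timp3 thus set most of the inhibitor sum in wild type, and with Timp3 left out the mean ratio was 1.09 in wild type and 1.73 in tumors.

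Single pairs of enzyme and inhibitor followed the sums in some cases. Mmp14 over Timp2, a pair that meets at the cell surface, was 0.232 in each wild-type library and 0.801, 0.923 and 1.19 in tumors. Mmp2 over Timp2 was 0.134 and 0.137 in wild type and 0.601, 0.616 and 0.281 in tumors. Mmp9 over Timp1 was 0.0323 and 0.0393 in wild type and 0.0164, 0.0647 and 0.193 in tumors, so that the groups overlapped. These are ratios of transcript levels and not of proteins, whose secretion and activation were not measured.

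**Figure D5:**
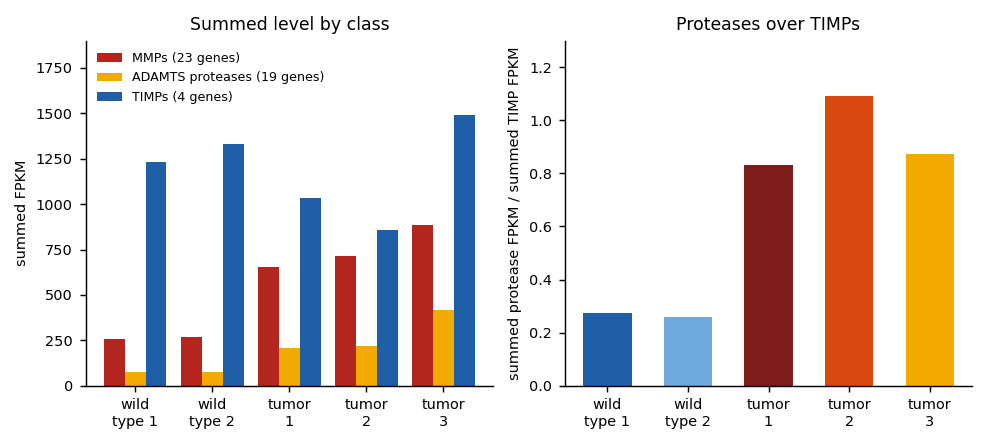
Left, summed FPKM of the 23 MMP, 19 ADAMTS and 4 TIMP genes in every library, and right, the ratio of summed protease FPKM (MMP and ADAMTS) to summed TIMP FPKM, with bars from 0. The ratio is 0.272 and 0.261 in the wild-type libraries and 0.833 to 1.09 in the tumor libraries, while the TIMP bars of the groups overlap in height.

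Genes that act with these enzymes were read from the same fit. Of 37 such genes 31 were tested, of which 13 rose (41.9%) and 1 fell. Over all tested loci 18.7% rose and 15.4% fell. The lists were chosen with earlier results of these data known, so the difference between these shares is no independent evidence. Among the ADAM sheddases, membrane-bound relatives that release surface proteins, 6 of 9 rose and 0 fell in edgeR (0 at an unadjusted p under 0.05, and 0 with DESeq2). Adam19 read 1.21 and 1.06 FPKM in wild type, against 12.8, 11.6 and 13.6 FPKM in tumors (log2 fold change 3.57, edgeR adjusted p = 0.0029). Adam12 had levels of 0.239 and 0.333 FPKM in wild type and of 6.27, 6.07 and 11.2 FPKM in tumors (4.83, edgeR adjusted p = 0.0054). Of the astacin proteases, which remove the carboxy-terminal propeptide of procollagens, both tested genes rose. Bmp1 went from 14.2 and 13.7 FPKM to 58.2, 105 and 76.8 FPKM (2.58, edgeR adjusted p = 0.0085), and Tll1 from 1.15 and 1.07 FPKM to 2.04, 5.55 and 7.89 FPKM (2.26, edgeR adjusted p = 0.048). The Tll1 call ended in edgeR without tumor library 2 (adjusted p = 0.075) and without tumor library 3 (adjusted p = 0.072). With all libraries Tll1 did not pass in the 3 limma-trend fits (adjusted p = 0.062, 0.074 and 0.097) or in edgeR without the low-count filter (adjusted p = 0.053).

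The plasminogen system makes plasmin, which can activate MMP precursors, and 3 of its 6 tested genes rose. Plau, the gene of urokinase, went from 4.94 and 4.76 FPKM to 26.98, 22.8 and 28.9 FPKM (log2 fold change 2.50, edgeR adjusted p = 0.0038). Plaur, the gene of its receptor, went from 3.55 and 2.96 FPKM to 18.6, 21.0 and 42.6 FPKM (3.13, edgeR adjusted p = 0.013). Of 9 other regulators 1 rose (11.1%, below the 18.7% of all tested loci) and 1 fell. Bsg, which encodes basigin, a surface protein known to induce MMPs and abundant in retinal pigment epithelium, fell from 2240 and 2182 FPKM to 455, 571 and 385 FPKM (−2.20, edgeR adjusted p = 0.0080). Pcsk6, which encodes a furin-like convertase, went from 4.86 and 5.48 FPKM to 14.7, 9.79 and 22.2 FPKM (1.64, edgeR adjusted p = 0.032). Pcsk6 no longer passed in edgeR once tumor library 1 was left out (adjusted p = 0.064). Of 5 tested substrates and partners among lecticans and fibrillins, 1 rose in edgeR (20%, near the 18.7% of all tested loci). In edgeR 3 rose at an unadjusted p under 0.05, and 3 rose with DESeq2, each time Vcan, Acan and Fbn1. The gene that rose in edgeR was Vcan, the gene of versican, a substrate of ADAMTS1, ADAMTS4 and ADAMTS5. It went from 5.56 and 5.65 FPKM to 30.1, 20.5 and 20.4 FPKM (1.82, edgeR adjusted p = 0.0080). Without tumor library 2, 4 of the 31 genes fell in edgeR.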

How the data were processed

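RNA from 2 wild-type uvea libraries and 3 Lats1/2 mutant eye tumor libraries was measured by RNA-seq. Per the labels' protocols, Trizol extraction was followed by an Illumina TruSeq RNA library kit. The tools named in the submitters' processing notes are TopHat2 (2.0.9), then Cuffdiff and Cufflinks (2.2.1), on build mm10. The annotation and the strand setting were not given in the sources used here. Per the file headers, the authors deposited an estimated count of fragments per locus and library, not scaled, and an FPKM per locus and library. These estimates were rounded (96.8% to 97.1% of them were whole in each library, and 98.6% to 98.7% within 0.01 of whole). The authors' mean FPKM per group lay within 1% of the mean of the library values above 1 FPKM and was not used.

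The 1627 loci without a gene name, with 1.52% to 4.37% of fragments, were left out. The 23141 named loci entered edgeR 4.0.16 (R 4.3.3): filterByExpr at a minimum count of 10, TMM scaling (factors 0.909 to 1.08), and the two-sided quasi-likelihood F-test on all 5 libraries, adjusted by Benjamini-Hochberg over all tested loci. "Rose" and "fell" mean an adjusted p under 0.05. The SE is the log2 fold change over the square root of F. Totals of 12687703 to 14368272 fragments set the precision. Alternatives were DESeq2 1.42.0, limma 3.58.1 (limma-trend on log2 FPKM), other scaling and filters, a replicate block and leaving out each library. DESeq2 with a library left out was added after the data were seen. The fit was tested on simulated data.

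The genes, roles, pathway lists and markers were chosen with earlier results of these data known. Named with values are all TIMP genes, genes that passed, genes that did not pass but averaged 5 FPKM or more in a group, and up to 2 called genes of each pathway list with the smallest p. Gene positions are from GENCODE (GRCm38), promoters from RefSeq. Protein sequences were not used here.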

Additional observations from a re-analysis of the deposited data

How the results depend on the processing

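Counts of these genes depended most on which wild-type libraries entered. Leaving out single libraries in edgeR gave 0 to 6144 called loci, 0 to 19 rises and 0 to 4 falls of the 51 genes, and 0 to 14 rises and 0 to 4 falls of the pathway genes. Each 0 came without wild-type library 1 or 2, where the lone wild-type library is assumed to vary like the tumors. DESeq2 in those sets, chosen after the data were seen, called 2799 and 2830 loci. It gave 7 pathway rises without wild-type library 1. Falls among the 51 genes, 1 with edgeR, were 4 with DESeq2, 3 each with DESeq2 without tumor library 1 or 2, and 4 without tumor library 3. They were 2 with library size alone, 3 with limma-trend on log2(FPKM + 1) or log2(FPKM + 0.1), and 4 with the former unfiltered. Pathway falls were 4 with DESeq2 without tumor library 2 and 2 without tumor library 3. The cause was not tested.

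With a replicate block in edgeR 3067 loci were called, with 16 rises and 3 falls of the 51 genes. Deviations of same-numbered libraries from their group means correlated at 0.013 and 0.027. With 2 wild-type libraries their deviations mirror each other, so this cannot tell whether the numbers mark a shared source. The direction reversed for Adamts15 without tumor library 2 (−0.16 in edgeR, range over libraries left out −0.16 to 1.40, and −0.16 in DESeq2). It reversed for Timp4 without tumor library 1 (−1.52 in edgeR, range −1.52 to 1.35, and −1.57 in DESeq2) and with limma-trend on log2(FPKM + 0.1) (−0.35). The mean protease to TIMP ratio, 0.266 in wild type and 0.932 in tumors, was 0.321 and 1.01 with ADAMTS-like genes added, 0.206 and 0.686 for MMP genes alone, 1.09 and 1.73 without Timp3, and 0.195 and 1.16 from raw fragments. It was higher in tumors in each of these. Leaving out libraries gave 0.261 to 0.272 in wild type and 0.853 to 0.981 in tumors. Dixon's outlier test was not run, and no protein motif search was run.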
